A study of Mus musculus with 4 samples.

Results

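The 9 genes described here encode 5 ligands (Bmp2, Bmp4, Bmp5, Bmp7 and Gdf5), the antagonist Noggin (Nog), the receptors Bmpr1a and Bmpr1b, and the transcription factor Msx2. They were chosen by name for their roles in bone morphogenetic protein (BMP) signalling and in joint formation, and each of the 9 was measured by 1 probe set among the 16492 that were tested. Limb RNA from mouse embryos at E12.5 was hybridized to 4 Affymetrix arrays, 2 for wildtype embryos and 2 for littermates that carried a SHOX transgene, all labelled as strain C57BL/6. Every array held RNA of both limb pairs pooled from 2 to 4 embryos. The transgene Tg(Col2a1-SHOX) is the human SHOXa cDNA behind a rat Col2a1 promoter and enhancer, which are active in cartilage-forming cells, whereas the RNA came from whole limbs. It was injected into eggs of C57BL/6 x DBA/2 hybrids and the founders were bred with C57BL/6 mice, and which of the transgenic lines was put on the arrays is not given in the sources used here. Mice have no SHOX orthologue, so no probe set could check the transgene. The titles of the arrays share a suffix that is read here as the hybridization experiment, so that experiments 1 and 2, numbered in no order, each held 1 wildtype and 1 transgenic array. The labels give nothing more on how the pools were composed, and p-values measure the spread between these arrays alone.

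BMPs are secreted ligands of the TGF-beta superfamily that bind type I and type II receptors and cause Smad1, Smad5 and Smad9 to enter the nucleus with Smad4. Secreted antagonists such as Noggin and Gremlin hold ligands away from the receptors, and the Id and Msx genes are well known targets. In the limb bud BMPs take part in shaping the apical ectodermal ridge and the digits, in the condensation of cartilage and in the death of cells between the digits. Gdf5 marks the interzones in which joints form, and joints fail to form in mice that lack Noggin.

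The deposited values are log2 expression values, on which a difference of 1 is a doubling, and levels of different probe sets cannot be set against each other. Array medians ran from 7.81 to 7.85. The arrays of an experiment resembled each other more than those of a genotype did: Pearson's r over all probe sets, as a description, was 0.998 in experiment 1 and 0.997 in experiment 2, but 0.987 for the wildtype pair and 0.986 for the transgenic pair. The 13 genes of limb mesenchyme that were measured, among them Prrx1, Tbx5, Tbx4 and Hoxd13, had mean log2 values of 8.91 and 9.34 on the wildtype and 8.84 and 9.28 on the transgenic arrays of experiments 1 and 2. Xist, the RNA of the inactive X chromosome, was lower in transgenic limbs by a log2 difference of -2.99, and the Y-linked gene Eif2s3y was higher by 0.83. The sex of the pooled embryos is not given in the sources used here, and what part it has in the values below was not tested. The bulk samples cannot tell fewer cells of a type from less RNA per cell.

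Bmp2 was the only one of the 9 genes that rose in transgenic limbs at the thresholds used here, a log2 difference over 0.2 in the mean of the experiments with an unadjusted p below 0.05. No member fell. The study used the same limits but asked for the change in each experiment. With a log2 difference over 0.2 required in each as well, 0 of 9 members were called (0.133% of all probe sets), since Bmp2 differed by 0.18 in experiment 1. Over all probe sets 0.188% were called in the fit without a term for the experiment (0.133% as higher), and 1.55% with the experiment as a replicate block (1.23% as higher). The member count was 1 of 9 in both fits. None of the 9 passed a Benjamini-Hochberg adjusted p of 0.05 in limma with or without the block, where over all probe sets 0% passed without it and 0.273% with it, and Bmp2 was the 1 member with an unadjusted p below 0.05 in either fit. The median log2 difference of the 9 genes was 0.05, beside -0.01 for all probe sets, and the median of its absolute size was 0.06 beside 0.04. The plot of log2 values on each array shows the 4 measurements of each gene.

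**Figure D1:**
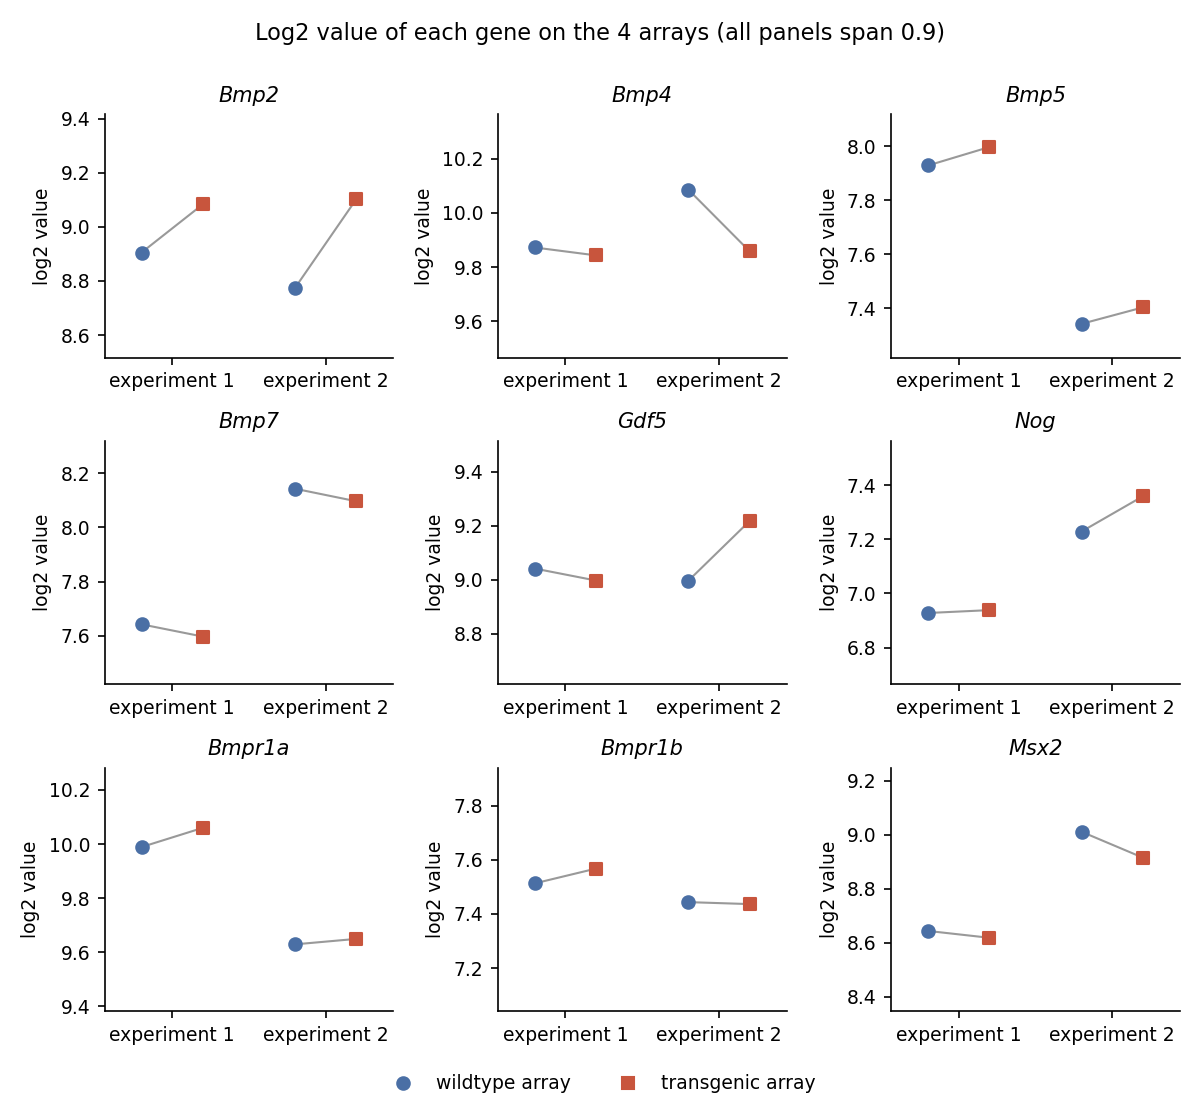
Log2 value (y axis) of each of the 9 genes on the 2 wildtype arrays (circles) and the 2 transgenic arrays (squares), by experiment (x axis). Experiments are read from the title suffix. A line joins the arrays of an experiment, and every y axis has the same span of 0.9. The squares of Bmp2 lie at 9.08 and 9.10, above its circles at 8.90 and 8.77. Bmp5, Bmp7, Nog, Bmpr1a and Msx2, and over a smaller range Bmpr1b, are set apart by experiment more than by genotype.

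Bmp2 (Entrez gene 12156) encodes a ligand made in the limb bud's ridge and mesenchyme and around cartilage. Its log2 values were 8.90 and 8.77 in the wildtype limbs of experiments 1 and 2, and 9.08 and 9.10 in the transgenic limbs. Both transgenic arrays lay above both wildtype arrays, and the former differed from each other less than the latter. Transgenic exceeded wildtype limbs by 0.18 in experiment 1 and by 0.33 in experiment 2. The mean log2 difference was 0.25 (95% interval 0.03 to 0.48 without the block), or a 1.19-fold higher level. Limma without the block gave an unadjusted p of 0.0358 and an adjusted p of 1. With the block these were 0.000579 and 0.124. A difference at least as large in either direction was found in 0.546% of all probe sets. The direction held in all of 11 alternative settings, but several of these change only the error or the probe sets tested, not the difference. Leaving out an array could not reverse it, since both transgenic arrays lay above both wildtype arrays. The thresholds were passed in only 2 of the 11 settings, with the block and after a repeated quantile normalization. They were passed with none of the 4 arrays left out, where the unadjusted p in limma ran from 0.0716 to 0.233 and the log2 difference from 0.19 (without wildtype replicate 2) to 0.32 (without wildtype replicate 1).

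Several cell type lists were shifted between the same genotypes. Of 14 measured cartilage genes, 10 were above the wildtype value in both experiments (22.4% of all probe sets) and none was below it in both. Their median log2 difference was 0.15. At the thresholds 1 of them was called without the block, Col9a3, a chain of collagen type IX, and 5 with it, all higher, beside 0.133% and 1.23% of all probe sets called as higher. None passed an adjusted p of 0.05 in limma without the block and 2 did with it, beside 0.273% of all probe sets. The mean log2 value over the list was 8.56 and 8.57 on the wildtype and 8.67 and 8.80 on the transgenic arrays.

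Skeletal muscle genes were shifted as far. Of 12 measured, 8 were higher in both experiments (22.4% of all probe sets) and 1 was lower in both, with a median log2 difference of 0.16. None was called without the block. With the block 5 were called, all higher, beside 1.23% of all probe sets. In that fit 2 passed an adjusted p of 0.05 in limma, beside 0.273% of all probe sets. Their mean log2 value was 9.64 and 9.12 on the wildtype and 9.73 and 9.36 on the transgenic arrays. Of 7 erythroid genes 4 were lower in both experiments, beside 30.5% of all probe sets (median -0.13, none called without the block and 1 with it). Limb mesenchyme and the apical ridge both make Bmp2. Of 13 mesenchyme genes 10 were lower in both experiments and 1 was higher in both (median -0.07). Of 13 genes of epidermis and apical ridge 3 were lower in both and 3 were higher in both (median -0.02). In each list none was called without the block and 1 was called with it, as lower, beside 1.55% of all probe sets called with the block. Of 9 endothelial genes 6 were higher in both experiments (median 0.06), as were 4 of 9 macrophage genes (median 0.04). In neither list was a gene lower in both or called in either fit. Of 9 genes of neurons and Schwann cells 2 were higher in both and 2 were lower in both (median 0.05). With the block 2 of them were called, as higher, and none was called without it. The part of these lists in the Bmp2 result was not tested.

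Bmp4 (Entrez gene 12159), the closest relative of Bmp2 among the ligands, differed with the opposite sign. It had log2 values of 9.87 and 10.09 in wildtype and 9.84 and 9.86 in transgenic limbs. Both transgenic arrays lay below both wildtype arrays, by 0.03 in experiment 1 and by 0.23 in experiment 2. The genotypes thus did not overlap for Bmp2 and Bmp4, 2 of the 9 genes, as for 18.4% of all probe sets. The mean log2 difference of Bmp4 was -0.13 (95% interval -0.40 to 0.15, unadjusted p = 0.271 and adjusted p = 1 from limma without the block). With the block the interval was -0.26 to 0.0028 and the unadjusted p was 0.0545, so that Bmp4 was called in neither fit.

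Bmp5 (Entrez gene 12160), the ligand whose loss causes the short ear mouse, had log2 values of 7.929 and 7.343 in wildtype and 7.997 and 7.404 in transgenic limbs. The arrays of experiment 1 were the high ones in both genotypes. Its genotype difference was 0.07 in experiment 1 and 0.06 in experiment 2, and its 95% interval ran from -0.71 to 0.84 without the block and from -0.06 to 0.19 with it. Bmp7 (Entrez gene 12162), a ligand of the ridge and the mesenchyme between the digits, had log2 values of 7.642 and 8.143 in wildtype and 7.597 and 8.097 in transgenic limbs. Here the arrays of experiment 2 were the high ones. The genotype difference of Bmp7 was -0.05 in each experiment, with a 95% interval of -0.71 to 0.62 without the block and -0.17 to 0.08 with it.

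Gdf5 (Entrez gene 14563), the ligand of the joint interzone, had log2 values of 9.041 and 8.996 in wildtype and 8.997 and 9.217 in transgenic limbs. The transgenic array of experiment 2 was high and the other 3 lay close together, so the genotypes overlapped. It differed by -0.04 in experiment 1 and by 0.22 in experiment 2, with a mean log2 difference of 0.09 (95% interval -0.19 to 0.37, unadjusted p = 0.442 from limma without the block). Nog (Entrez gene 18121), which encodes an antagonist that binds BMPs and Gdf5, had log2 values of 6.93 and 7.23 in wildtype and 6.94 and 7.36 in transgenic limbs. Both arrays of experiment 2 were high. It differed by 0.01 in experiment 1 and by 0.13 in experiment 2, with a mean log2 difference of 0.07 (95% interval -0.44 to 0.58, unadjusted p = 0.726 from limma without the block). With the block the intervals were -0.05 to 0.23 for Gdf5 and -0.05 to 0.20 for Nog.

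Bmpr1a (Entrez gene 12166) encodes a type I receptor for BMP2 and BMP4 that is made broadly in the limb. Its log2 values were 9.99 and 9.63 in wildtype and 10.06 and 9.65 in transgenic limbs, with the arrays of experiment 1 high. The mean genotype difference of Bmpr1a was 0.05 (95% interval -0.48 to 0.58 without the block and -0.08 to 0.17 with it). Bmpr1b (Entrez gene 12167) encodes the type I receptor of cartilage condensations through which Gdf5 signals. It had log2 values of 7.51 and 7.44 in wildtype and 7.57 and 7.44 in transgenic limbs, the smallest range over the arrays of the 9 genes. The mean genotype difference of Bmpr1b was 0.02 (95% interval -0.21 to 0.26 without the block and -0.10 to 0.15 with it). Msx2 (Entrez gene 17702), a homeobox gene that BMPs induce in the ridge and the mesenchyme below it, had log2 values of 8.64 and 9.01 in wildtype and 8.62 and 8.91 in transgenic limbs. Both arrays of experiment 2 were high, and the genotype difference was -0.03 and -0.10 in experiments 1 and 2. The mean for Msx2 was -0.06 (95% interval -0.53 to 0.41 without the block and -0.18 to 0.06 with it). The lowest unadjusted p of these 3 genes in limma was that of Msx2, 0.744 without the block and 0.313 with it.

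**Figure D2:**
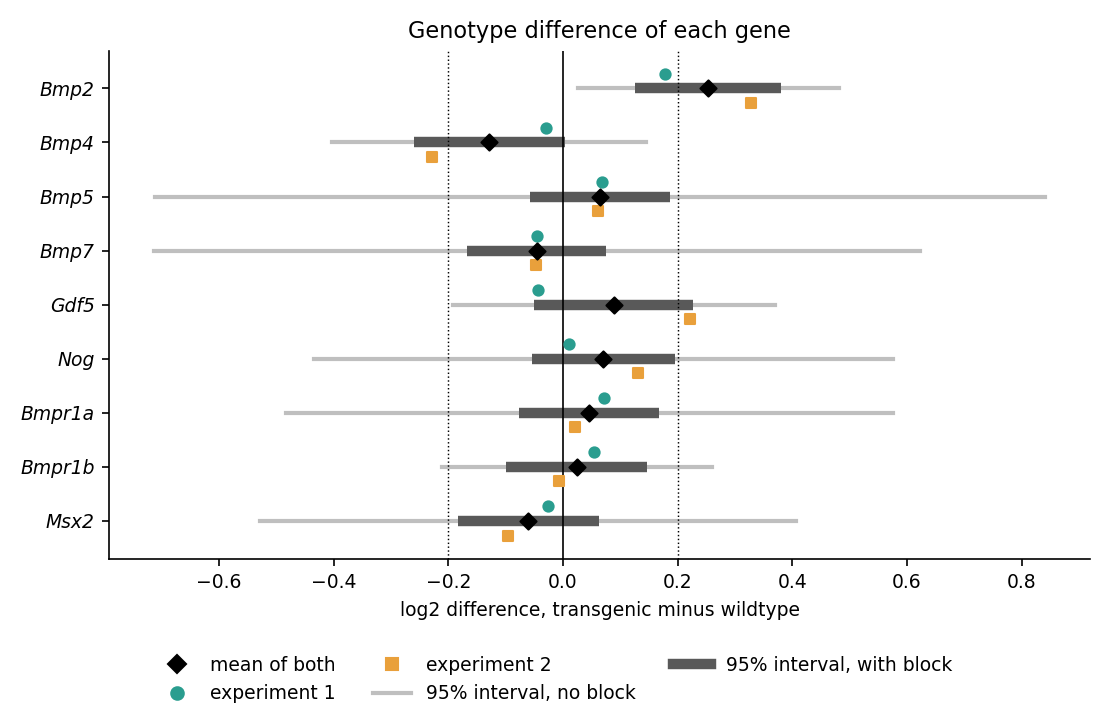
Log2 difference of transgenic minus wildtype limbs (x axis) for each of the 9 genes (y axis): the mean of both experiments (diamonds), each experiment (circles and squares), and the 95% interval from limma without the block (thin grey) and with it (thick dark). Dotted lines mark 0.2 in each direction; the mean of Bmp2, 0.25, is the only one beyond them, and the intervals of Bmp5 and Bmp7 narrow most with the block.

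The direction was the same in both experiments for 7 of the 9 genes (52.9% of all probe sets). Bmp2, Bmp5, Nog and Bmpr1a were higher in the transgenic array of each experiment (22.4% of all probe sets), and Bmp4, Bmp7 and Msx2 were lower in each (30.5%). The differences of Gdf5 and Bmpr1b had opposite signs in the experiments.

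Promoter sequences are shown for Bmp4, Bmp5 and Msx2, of which Bmp4 had genotypes that did not overlap and the other pair differed between the experiments. The letters ATTA, or TAAT on the other strand, are the core that SHOX and many other homeodomain proteins bind, and were searched for on both strands. RefSeq promoter windows of 300 bases, from 250 before to 50 after a start, in build GRCm38.p6, were found for 5 of the 9 genes, in 7 windows; Bmp2, Bmp7, Gdf5 and Nog had none in the table used. Capitals mark ATTA or TAAT, which share letters where they stand as TAATTA. The windows are chr14:46390620-46390919 (minus strand) for Bmp4, chr9:75775115-75775414 (plus strand) for Bmp5 and chr13:53472731-53473030 (minus strand) for Msx2, each written 5′ to 3′ on the strand of the gene.
Bmp4: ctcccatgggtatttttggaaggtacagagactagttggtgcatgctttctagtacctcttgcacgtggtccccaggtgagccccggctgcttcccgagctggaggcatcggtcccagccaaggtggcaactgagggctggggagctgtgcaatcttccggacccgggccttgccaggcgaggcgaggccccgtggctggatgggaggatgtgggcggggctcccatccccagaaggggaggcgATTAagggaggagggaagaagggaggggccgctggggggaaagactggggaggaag
Bmp5: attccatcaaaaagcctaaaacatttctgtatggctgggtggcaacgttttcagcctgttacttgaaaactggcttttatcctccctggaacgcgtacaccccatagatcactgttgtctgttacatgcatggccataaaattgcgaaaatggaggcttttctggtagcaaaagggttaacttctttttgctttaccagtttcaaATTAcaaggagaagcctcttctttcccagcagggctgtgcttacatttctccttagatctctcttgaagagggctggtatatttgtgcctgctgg
Msx2: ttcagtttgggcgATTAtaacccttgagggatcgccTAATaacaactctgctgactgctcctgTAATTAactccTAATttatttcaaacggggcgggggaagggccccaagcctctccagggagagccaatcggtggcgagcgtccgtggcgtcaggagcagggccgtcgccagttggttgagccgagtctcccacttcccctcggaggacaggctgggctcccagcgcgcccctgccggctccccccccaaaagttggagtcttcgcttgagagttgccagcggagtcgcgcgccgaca

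The window of Msx2 held 5 such matches, 2 of ATTA and 3 of TAAT, all of them between 237 and 176 bases before the start. Those of Bmp4 and Bmp5 held 1 each, at 6 and 45 bases before the start. At least 1 match was present in 58.0% of all 32851 windows in the table. The window of Bmpr1a held none and was the richest in G and C, with 79.3%. It is not shown, although Bmpr1a differed between the experiments as well. Of the 3 windows of Bmpr1b, not shown either, 1 held 2 matches and the others held none. The letters GGCGCC, a motif of BMP-activated Smad proteins that reads the same on both strands and cannot overlap ATTA, were found once in the window of Bmpr1a and in no other member's window, and in 11.9% of all windows. These matches are letters in a window and are no sign of binding.

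Between the experiments 5 of the 9 genes differed at an adjusted p under 0.05 in limma with genotype and experiment as terms, where 39.2% of all probe sets did. Bmp7, Nog and Msx2 were higher in experiment 2, as were 20.1% of all probe sets, and Bmp5 and Bmpr1a were lower. Bmp5 had the largest distance, a log2 difference (experiment 2 minus experiment 1) of -0.59 (95% interval -0.71 to -0.47, adjusted p = 4.27e-07 from limma), or a 1.504-fold lower level, which 2.35% of all probe sets matched in size. Bmp7 followed with 0.50 (95% interval 0.38 to 0.62, adjusted p = 2.52e-06 from limma), or 1.41-fold. Bmpr1a was at -0.39, Nog at 0.36 and Msx2 at 0.33, with adjusted p-values from 4.19e-05 to 0.000193 in the same fit. For these 5 genes the distance between experiments was 5.11 to 10.9 times the genotype difference. Bmp2, Bmp4, Gdf5 and Bmpr1b did not pass, with log2 differences of -0.06, 0.11, 0.09 and -0.10. The 4 intervals together reached from -0.22 to 0.25. For 6 of the 9 genes both arrays of one experiment lay above both of the other, against 66.4% of all probe sets.

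Several cell type lists differed between the experiments in the same fit. Of 13 genes of limb mesenchyme 10 were higher in experiment 2 and none was lower, with a median log2 difference of 0.44. Of 13 genes of epidermis and apical ridge 1 was higher and 8 were lower (median -0.30), and of 12 skeletal muscle genes 2 were higher and 9 were lower (median -0.40). Cartilage genes went both ways, with 6 of 14 higher and 5 lower. What these shifts have to do with the distances of Bmp5, Bmp7, Nog, Bmpr1a and Msx2 was not tested. What differed between the experiments, which are known here only from the title suffix, is not given in the sources used here.

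**Figure D3:**
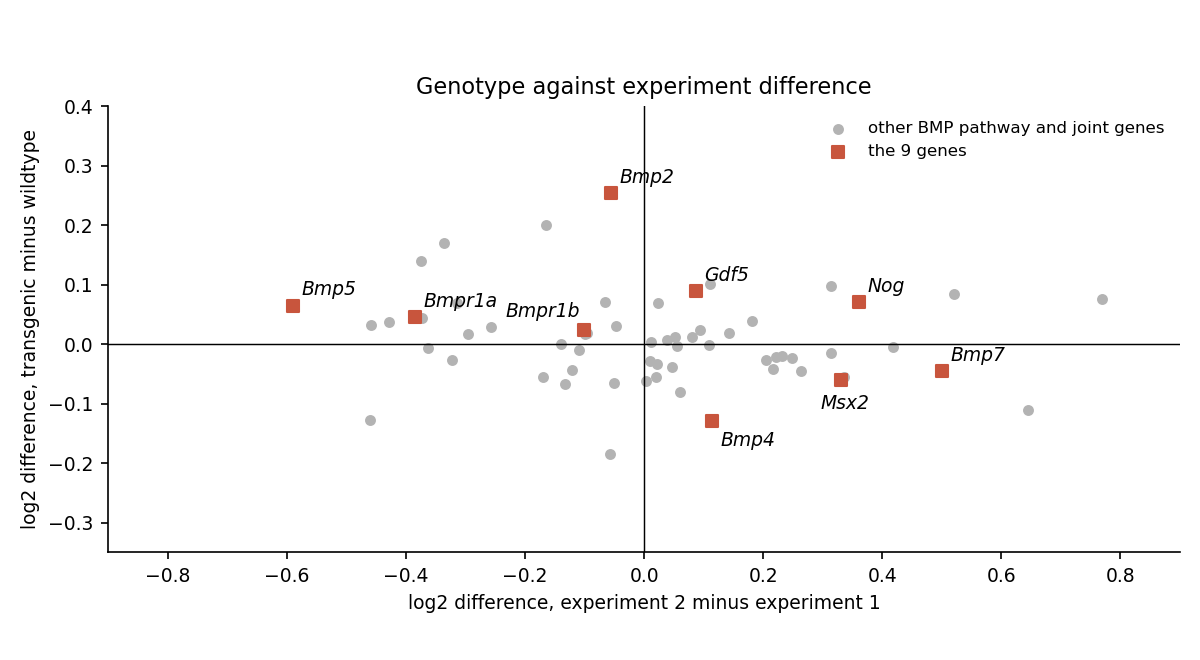
Log2 difference of transgenic minus wildtype limbs (y axis) against experiment 2 minus experiment 1 (x axis), on the same scale, for the 9 genes (squares) and the 53 other BMP pathway and joint genes (circles). Most points spread along the x axis; Bmp5 lies at -0.59 and Bmp7 at 0.50 on it, and Bmp2 is highest on the y axis at 0.25.

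Of 50 other genes of the BMP pathway 42 were measured. None passed the thresholds without the block, with 0 at an unadjusted p below 0.05 in limma and 1 in a one-way analysis of variance. With the block 1 rose, Bmper (1.55% of all probe sets were called), and 5 of 42 had an unadjusted p below 0.05, as did 7.92% of all probe sets. None passed an adjusted p of 0.05 in either fit. The median log2 difference of the 42 genes was -0.01, as it was for all probe sets.

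The secreted antagonists had the widest spread, from -0.18 to 0.20 over 14 measured genes. Bmper, which encodes a secreted regulator of BMP activity in vessels and cartilage, had log2 values of 8.75 and 8.49 in wildtype and 8.86 and 8.79 in transgenic limbs, and both transgenic arrays lay above both wildtype ones. Bmper differed by 0.107 in experiment 1 and by 0.295 in experiment 2. Its mean log2 difference, 0.2008, was barely past the threshold of 0.2. The unadjusted p from limma was 0.151 without the block and 0.00471 with it (adjusted p = 0.282 with the block). Sost, known from bone for the Wnt inhibitor sclerostin, had log2 values of 7.26 and 7.19 in wildtype and 7.06 and 7.02 in transgenic limbs, a mean difference of -0.18 (unadjusted p = 0.0698 from limma without the block). Its genotypes did not overlap either. Fst, which encodes the activin and BMP binding protein follistatin, had log2 values of 8.50 and 8.11 in wildtype and 8.61 and 8.33 in transgenic limbs, which overlapped, and a mean difference of 0.17. Grem1, the Gremlin gene of the limb's signalling loop between ridge and mesenchyme, had log2 differences of 0.13 and -0.18 in experiments 1 and 2, and is named here for that role after its values were seen.

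The other roles, each with fewer measured genes, had smaller extremes. Their medians of absolute size, from 0.031 to 0.042, lay on both sides of the 0.038 of the antagonists. The 4 further ligands that were measured, of 8 listed, lay between -0.06 and 0.02, with Bmp8a and Bmp10 at -0.06 and Bmp8b at 0.02. None of the 4 reached the 50th percentile of mean log2 value, and their signal over background is unknown. Bmp3, Bmp6, Gdf6 and Gdf7 were listed but not measured. Of 9 further receptors and co-receptors the farthest were the activin receptor Acvr2b at -0.11, the co-receptor Hjv at 0.10 and the co-receptor Rgma at 0.08. Among 8 Smad proteins and their inhibitors, the inhibitory Smad7 stood at 0.10, Smad9 at -0.08 and Smad1 at 0.07. Of 7 BMP targets 5 were lower in the transgenic array of both experiments (30.5% of all probe sets) and none was higher in both. Their median log2 difference was -0.03. Id1, an inhibitor of basic helix-loop-helix factors that BMPs induce, was at -0.13, Atoh8 at -0.06 and Msx1, the paralogue of Msx2, at -0.04. None of these passed the thresholds with or without the block.

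**Figure D4:**
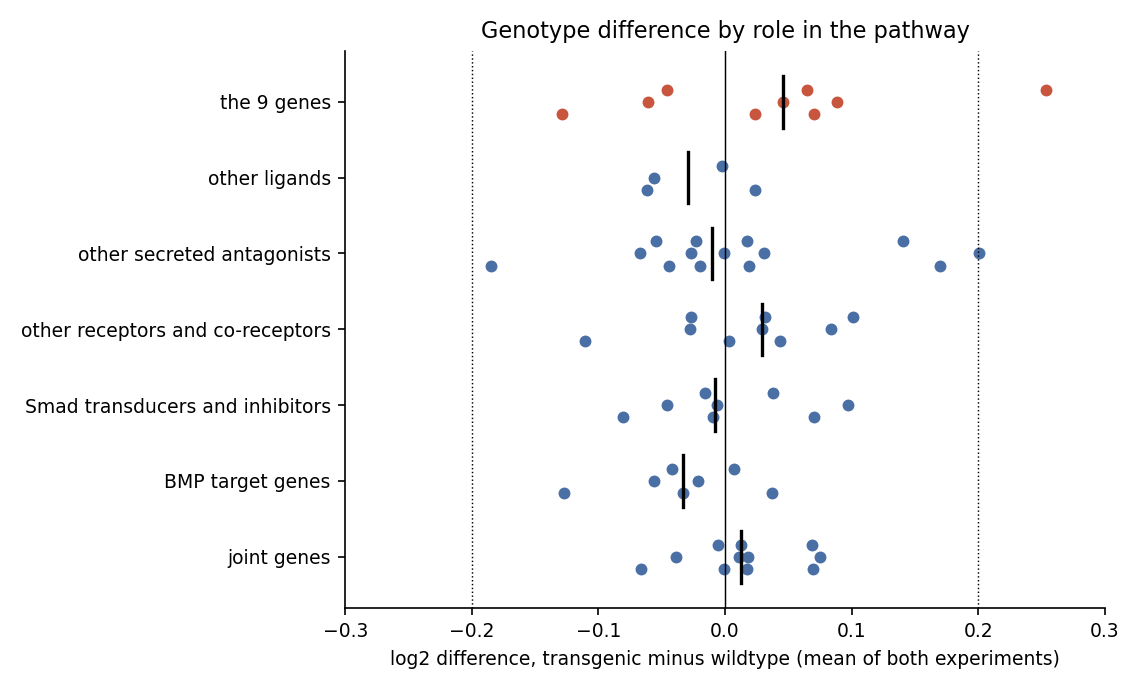
Log2 difference of transgenic minus wildtype limbs, as the mean of both experiments (x axis), for the 9 genes and for the other BMP pathway and joint genes by role (y axis); each point is a gene, the vertical bar is the median of its group and dotted lines mark 0.2 in each direction. Bmp2 at 0.25 and Bmper at 0.20 lie farthest to the right, and Sost at -0.18 farthest to the left.

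Of 13 genes of the joint interzone 11 were measured beside Gdf5, and none passed the thresholds in limma with or without the block, nor an unadjusted p of 0.05 in either. Their log2 differences ran from -0.07 to 0.08, with a median of 0.01. Osr2, a transcription factor of the joints, had the largest at 0.08, followed by the hyaluronan receptor Cd44 and the receptor Tgfbr2 at 0.07. The early interzone genes Wnt9a and Wnt4 were each at 0.01 and Erg at 0.02. These 3 were named for their role after their values were seen. Wnt9a and Erg lay below the 50th percentile of mean log2 value, which 6 of the 11 joint genes reached. Osr2 was higher in experiment 2 by 0.77 on the log2 scale, with values of 7.73 and 7.84 on the wildtype and transgenic arrays of experiment 1 and 8.54 and 8.58 on those of experiment 2. Between the experiments 3 of the 11 joint genes and 24 of the 42 pathway genes passed an adjusted p of 0.05 in limma, or 27.3% and 57.1%, beside 39.2% of all probe sets.

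The genes whose profile over the 4 arrays was most like that of Bmp2, by the root mean square distance of mean-centred log2 values, were Cacna1s, which encodes a calcium channel subunit of skeletal muscle, Papss2, which makes the sulfate donor for cartilage proteoglycans, and Mex3b, which encodes an RNA-binding protein. Their distances were 0.03 each, and their genotype differences were 0.13, 0.10 and 0.13 in experiment 1 and 0.29, 0.34 and 0.29 in experiment 2. The profile closest to that of Bmp5 was that of B2m, the light chain of class I histocompatibility molecules, at a distance of 0.0075, followed by Atp6v1h, a subunit of the vacuolar proton pump, and Slf2. Pearson's r over the 4 arrays was over 0.99 with Bmp2 for 23 probe sets, or 0.139% of all, and with Bmp5 for 692, or 4.20%. The 4 points share their experiment and genotype.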

How the data were processed

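The authors deposited log2 expression values, 1 column for each of the 4 Affymetrix arrays. Per the methods of the study they quantile normalized log transformed perfect-match values in JMP Genomics, by a custom definition of Entrez genes. Neither the summary of probes nor a genome build is stated in the sources used here, and the log base was taken from the scale of the values and the thresholds in the paper. Signal over background is unknown, and precision is limited by how few arrays there are.

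Of 16556 probe sets 64 controls were left out. The platform annotation names 1 gene for 15270 of the other 16492, and 1222 stay unnamed. No filter on dim probe sets was set in the main analysis. All 9 members lay at or above the 25th percentile of mean log2 value and 6 at or above the 50th.

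Genotypes were compared with limma 3.58.1 (lmFit and eBayes, R 4.3.3) with genotype as the only term and Benjamini-Hochberg adjustment over all probe sets. The mixed models of the study, which hold probe and genotype as fixed and the sample as a random term, were not refitted, since probe values were not used here. An alternative added the experiment as a block, since arrays share a title suffix and the study speaks of littermates and of both experiments. The deviations of paired arrays had a correlation of 0.857 over probe sets. The block left 1 residual and 16.4 prior degrees of freedom, against 2 and 2.40 without it, so that its errors lean on the spread of other genes.

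The members and lists were chosen with earlier results of these data known. Named are the members, up to 3 genes of each pathway and joint list with the largest mean difference, Xist and Eif2s3y, the 3 nearest profiles of Bmp2 and Bmp5, and, outside this rule, genes named for their role or as the only call of a list (Col9a3), chosen after their values were seen. The code was tested on simulated data with 200 changed probe sets.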

Additional observations from a re-analysis of the deposited data

How the results depend on the processing

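The count of called members, 1 without a block and with the replicate block, became 0 with centred arrays, with either filter on dim probe sets, with an intensity trend, with an unmoderated analysis of variance, at a log2 threshold of 0.3, with each array left out (0 in all 4), and, in a setting chosen after seeing the data, with a difference over 0.2 required in each experiment (22 calls over all probe sets). Over all probe sets the 31 calls became 256 with the replicate block, 15 and 6 with filters at the 25th and 50th percentile, 48 with the trend, 14 with the unmoderated analysis, 14 at a log2 threshold of 0.3, and 12 (without wildtype replicate 2) to 56 (without wildtype replicate 1) with 1 array left out, with 20 without transgenic replicate 1. They split into 22 higher and 9 lower, but 18 and 19 with centring, 24 and 24 with the trend, and 203 and 53 with the block. Of the pathway genes 0 were called, and 1 with the replicate block; no other setting moved that count, and none moved that of 0 joint genes. With the block no member's call changed. The 5 members that differed between experiments became 3 at the 50th percentile, where fewer members were tested (6 of 9), and 5 to 6 with 1 array left out. Leaving out an array without a block puts part of the experiment difference into the genotype difference: the log2 difference then ran from 0.19 to 0.32 for Bmp2 and from -0.24 to -0.02 for Bmp4, which kept their sign, and from -0.23 to 0.36 for Bmp5, -0.30 to 0.20 for Bmp7, -0.022 to 0.20 for Gdf5, -0.14 to 0.28 for Nog, -0.16 to 0.25 for Bmpr1a, -0.042 to 0.089 for Bmpr1b and -0.24 to 0.12 for Msx2. Leaving out an array could not reverse the sign of Bmp2 or Bmp4, whose genotypes did not overlap. The other settings kept every member's sign, but of these only centring and the repeated quantile normalization could change a difference. Why the other counts moved was not tested.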
